A study of Mus musculus with 2 samples.

Results

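The Gimap genes encode GTPases of immunity-associated proteins, a family of small GTP-binding proteins made mostly by lymphocytes. The mouse members were chosen by symbol, Gimap1, Gimap3, Gimap4, Gimap5, Gimap6, Gimap7, Gimap8 and Gimap9, and no level or ratio entered that rule. Earlier results of these data were known when the choice was made. All 8 were found among the 32285 genes of both libraries, and all 8 passed the minimum used here for measured genes, a level of 10 CPM averaged over both libraries (CPM, unique molecular identifiers or UMIs per 1000000 of the summed T cells). The cells were Tregs, Foxp3-expressing CD4 T cells that restrain immune responses, sorted from mouse spleen and profiled by droplet-based single-cell RNA sequencing of transcript 3' ends. The CD25KO library came from CD25FL/FL-tdTomato+/+-Foxp3eGFPCretERT2+/+ mice, in which tamoxifen activates a Cre recombinase expressed from the Foxp3 locus and thereby deletes CD25, which is the product of Il2ra and the chain that gives the IL-2 receptor its high affinity. The CD25WT library came from CD25WT/WT-tdTomato+/+-Foxp3eGFPCretERT2+/+ mice, which carry the same reporters and the same Cre. Both groups received tamoxifen at 2 mg/kg by intraperitoneal injection for 5 days, the spleens were collected 10 days after induction, and each library pooled 2 spleens. Cells of both groups were sorted for viability, CD4, GFP and tdTomato, and only the CD25KO cells were also gated on low CD25, so that genotype and gate cannot be told apart. The ages of the mice are not given in the sources used here. Each group was 1 library, so no difference was tested, no p-value is given, and all intervals are 95% intervals for counting error only, without variation between animals.

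Gimap proteins share a GTPase domain related to that of the septins, and several sit on the membranes of intracellular organelles. They are best known for keeping naive lymphocytes alive and quiescent, and mice or rats without functional Gimap5 lose peripheral T cells and develop colitis or autoimmunity. The study asked how IL-2 receptor signalling shapes the mix of Treg subsets, and the family was followed across both libraries and across the Treg states found in them.

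The family lies as one block on chromosome 6, at chr6:48647234-48770851 in GRCm38 (mm10), over 124 kb. Along the plus strand the order is Gimap8, Gimap9, Gimap4, Gimap6, Gimap7, Gimap1, Gimap5 and Gimap3, of which Gimap6 and Gimap3 are transcribed from the minus strand. Gimap8 has the longest coding sequence, 2064 bases against 873 to 984 bases in the other 7 members. Gimap1 overlaps the antisense gene Gimap1os, and the annotation has a readthrough model, Gm28053, across Gimap7, Gimap1 and Gimap5 that is not among the counted genes. In the last 500 bases of the annotated transcripts, where 3' reads fall, 36 of 1797 words of 50 bases of Gimap1 also occur in the gene models Gm10310 or Gm49762, and 16 of 453 words of Gimap3 occur in Gm38409. The other 6 members shared no such word with another gene.

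RefSeq start-site windows (GRCm38.p6, 250 bases before and 50 after each start) were matched for 8 of 8 genes, with a pair of starts for Gimap8. The windows of Gimap5 and Gimap7 are shown because these 2 members differed most between the libraries. Gimap5 is at chr6:48745947-48746246 and Gimap7 at chr6:48718371-48718670, both on the plus strand, with capitals marking matches to the ETS-type core GGAAGT or the STAT5-type pattern TTCNNNGAA on either strand.
Gimap5 start window: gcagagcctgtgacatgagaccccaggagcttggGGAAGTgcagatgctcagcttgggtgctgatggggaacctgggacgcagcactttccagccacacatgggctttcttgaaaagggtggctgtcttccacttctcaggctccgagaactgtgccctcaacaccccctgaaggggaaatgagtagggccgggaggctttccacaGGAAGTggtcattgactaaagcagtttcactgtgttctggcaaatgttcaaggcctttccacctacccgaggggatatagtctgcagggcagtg
Gimap7 start window: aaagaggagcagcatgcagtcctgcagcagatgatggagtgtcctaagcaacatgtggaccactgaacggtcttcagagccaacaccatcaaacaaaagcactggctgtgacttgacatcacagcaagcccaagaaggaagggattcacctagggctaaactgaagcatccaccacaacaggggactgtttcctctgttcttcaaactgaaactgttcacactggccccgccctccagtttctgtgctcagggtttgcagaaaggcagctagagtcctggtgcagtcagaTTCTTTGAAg
The STAT5-type pattern was searched because STAT5 is the factor that IL-2 receptor signalling activates. It was in a window of 4 of 8 genes, against 8.30% of all 32851 windows taken singly. In Gimap8, with its pair of windows, it was only in that of the later start. The matches with up to 10 flanking bases are shown 5' to 3' for the minus-strand sites of Gimap3 (chr6:48770838-48770866) and Gimap6 (chr6:48708460-48708488) and the plus-strand sites of Gimap7 (chr6:48718651-48718670, cut by the window's end) and Gimap8 (chr6:48647304-48647332).
Gimap3 site: agcaccccttTTCAGAGAAactcatgtac
Gimap6 site: ttagaccttgTTCTAAGAAaagagattta
Gimap7 site: tgcagtcagaTTCTTTGAAg
Gimap8 site: aacctctttcTTCCTAGAAacatttggaa
The Gimap7 match lies 40 bases after the start, that of Gimap3 5 bases before it, that of Gimap8 47 bases before the later of its starts and that of Gimap6 234 bases before it. The ETS-type core was in 4 of 8 genes (Gimap1, Gimap5, Gimap6 and Gimap9), against 23.8% of all windows. The RUNX-type core TGTGGT was in 3 of 8 genes (16.8% of windows), the KLF-type core CCACCC in 5 of 8 (31.5%), the NFAT-type core GGAAAA in 3 of 8 (23.4%), the FOXO-type core TAAACA in 2 of 8 (13.4%), the TCF/LEF-type core CTTTGA in 2 of 8 (5257 windows) and the AP-1-type core TGANTCA in 0 of 8 (7.81%). In Gimap7 the TCF/LEF-type letters lie within the STAT5-type match. Every motif was searched on both strands. A gene was counted when any of its windows matched, while the background counts single windows. The KLF-type match of Gimap8 was also only in the window of its later start. These are letter matches in short windows and say nothing of binding.

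The CD25KO matrix held 7530 barcodes and 36986849 UMIs, and the CD25WT matrix 6620 barcodes and 36971834 UMIs. After removal of barcodes with under 500 detected genes or over 10% mitochondrial UMIs, 6952 CD25KO and 6110 CD25WT cells remained, of which 103 and 116 stood in clusters of other lineages and were set aside. The 6849 CD25KO T cells had a median of 4156 UMIs, and the 5994 CD25WT T cells a median of 5249.5. The libraries shared 107 barcodes. Il2ra was at 32.7 CPM in CD25KO and 126 CPM in CD25WT, in the direction of the labels, although the low-CD25 gate acts on the same gene. Foxp3 was at 21.8 CPM in CD25KO and 34.6 CPM in CD25WT, Ikzf2 at 1621 and 744 CPM, and 6 of 6 genes of the T cell lineage were measured in both. A Foxp3 UMI was seen in 686 of 6849 CD25KO and 965 of 5994 CD25WT T cells. Il2ra, Foxp3 and Ikzf2 belong to a list of 11 Treg identity genes that did not move 1 way. Of its 10 measured genes, 3 were 1.5-fold higher in CD25KO and 4 lower, where 10.6% and 1.49% of all measured genes were. Ribosomal protein genes held 31.1% of CD25KO and 39.5% of CD25WT UMIs.

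All 8 Gimap genes were present in both libraries, and the family as a whole took 0.291% of the UMIs of CD25KO T cells and 0.244% of those of CD25WT T cells. Family UMIs numbered 102569 in CD25KO (2913 CPM) and 84977 in CD25WT (2442 CPM). CPM here counts tagged transcript ends, 1 per molecule, so it is not scaled by transcript length. The most abundant members were Gimap1, which mature T and B cells need to survive, at 659 CPM in CD25KO and 537 CPM in CD25WT, and Gimap3, a membrane-anchored relative of Gimap5, at 631 and 600 CPM. Gimap4, known for a role in T cell apoptosis, had 535 CPM in CD25KO and 440 CPM in CD25WT. Gimap6, a binding partner of the ATG8-type autophagy protein Gabarapl2, had 369 CPM in CD25KO and 324 CPM in CD25WT. Gimap7, whose human counterpart acts on the GTPase activity of other family members, had 280 CPM in CD25KO and 183 CPM in CD25WT. Gimap9 had 175.2 CPM in CD25KO and 174.6 CPM in CD25WT, Gimap5 had 173 and 101 CPM, and Gimap8, the member with several GTPase domains, had 91.0 and 81.6 CPM. The order of the members was the same in both libraries except that Gimap1 stood above Gimap3 in CD25KO and below it in CD25WT. Neighbours in that order had overlapping counting intervals for Gimap9 and Gimap5 in CD25KO (171 to 180 and 169 to 177 CPM) and, barely, for Gimap7 and Gimap9 in CD25WT (178.9 to 188 and 170.2 to 179.04 CPM).

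**Figure D1:**
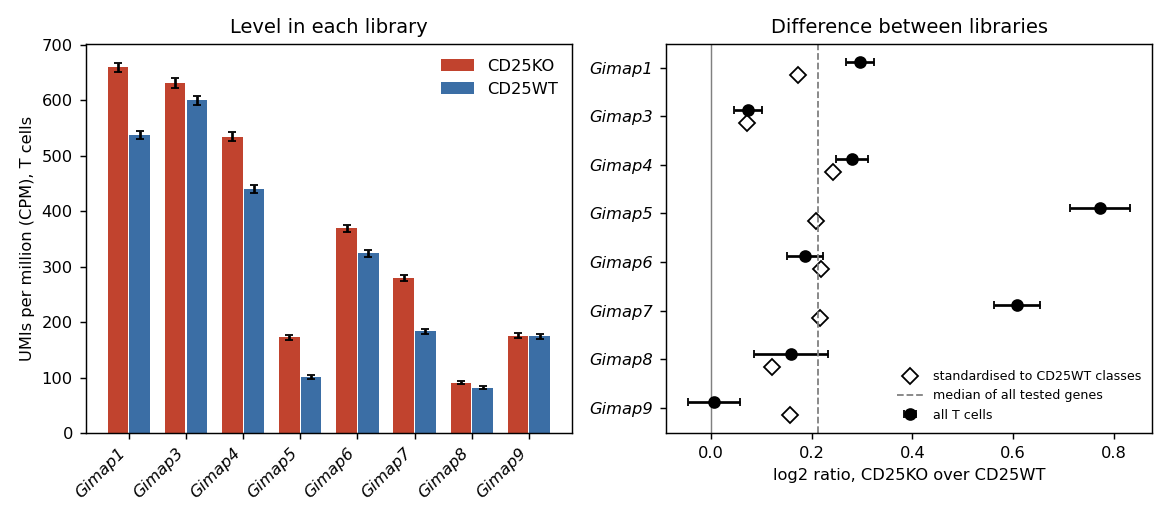
Left, level of each Gimap gene in T cells in CPM, CD25KO beside CD25WT, with 95% Poisson intervals. Right, log2 ratio of CD25KO over CD25WT with 95% counting intervals (filled), the ratio standardised to the CD25WT class shares (open) and the median of all tested genes (dashed). Gimap5 and Gimap7 stand to the right of the other 6 members until the same class weights are used for both libraries.

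Nearly every T cell held Gimap transcripts. At full depth 99.9% of cells in both libraries had at least 1 family UMI. After each cell was thinned to 2000 UMIs, which left 6500 CD25KO and 5936 CD25WT cells and dropped 349 and 58 shallower ones, the shares were 98.6% in CD25KO and 98.1% in CD25WT. Erythroid-rich barcodes set aside from the T cells, with a deeper median of 15832 UMIs in CD25KO and 17985 in CD25WT, held a family UMI in 8 of 8 and 6 of 11 cases. Gimap1 was seen in 71.4% of thinned CD25KO cells and 64.0% of thinned CD25WT cells, against 90.4% and 90.8% before thinning. Gimap5 was seen in 27.0% of thinned CD25KO cells and 17.2% of thinned CD25WT cells (46.8% and 36.8% before thinning), and Gimap7 in 38.6% and 28.4% (58.4% and 51.1%). Gimap9 was seen in 1973 of 6500 thinned CD25KO cells and 1781 of 5936 thinned CD25WT cells, a near-equal share, where the unthinned shares, 54.2% and 58.5%, ran the other way. The median thinned cell had UMIs of 4 different members in CD25KO and of 3 in CD25WT, and 29.5% of CD25KO and 18.7% of CD25WT cells had 5 or more. Thinned cells held 6.28 ± 3.44 family UMIs in CD25KO and 5.12 ± 2.95 in CD25WT (mean ± SD over cells, which are not replicates).

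Family transcripts were 0.25 higher in CD25KO than in CD25WT on the log2 CPM scale (counting interval 0.24 to 0.27), and the median over all 7127 measured genes was 0.21. The family thus differed from the typical gene by 0.04, and its ratio was 0.26 without the barcodes that both libraries share. Gimap5 and Gimap7 exceeded 1.5-fold in the CD25KO direction, and no member was 1.5-fold lower. That is 2 of 8 members, where 10.6% of all measured genes were 1.5-fold higher and 1.49% lower. Gimap5 had a log2 ratio of 0.77 (0.71 to 0.83), a fold of 1.71, and ranked above 93.7% of measured genes. Gimap7 had a log2 ratio of 0.61 (0.56 to 0.65), a fold of 1.52, and ranked above 90.1%. The other 6 members had lower ratios, spread from 0.00 to 0.30. Gimap1 had a log2 ratio of 0.30 (0.27 to 0.32), Gimap4 0.28 (0.25 to 0.31), Gimap6 0.19 (0.15 to 0.22) and Gimap8 0.16 (0.08 to 0.23). Gimap3 had 0.07 (0.05 to 0.10) and Gimap9 0.00 (-0.05 to 0.06). The sign for Gimap3, Gimap6, Gimap8 and Gimap9 was negative when libraries were scaled by TMM factors (trimmed mean of M values), by median-of-ratios factors or without ribosomal and mitochondrial genes. On these scales the median gene stood between -0.02 and 0.02, and the family ratio between 0.02 and 0.06. The ratios of Gimap5 and Gimap7 remained positive on all of these scales, down to 0.54 and 0.37, and then no member reached 1.5-fold.

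A comparison inside the family does not depend on how the libraries are scaled. Gimap5 made up 5.94% of family UMIs in CD25KO and 4.14% in CD25WT, and Gimap7 9.60% and 7.51%. Relative to the UMIs of the other 6 members together, Gimap5 was 0.58 higher in CD25KO on the log2 scale (0.52 to 0.64), and Gimap7 was 0.42 higher (0.37 to 0.46). Gimap5 and Gimap7 already had the highest ratios of CD25KO over CD25WT in the family. The positive sign of both differences therefore followed from setting these members apart, and only the size is informative. The intervals make no allowance for that choice. Gimap3 took the smaller share in CD25KO, 21.7% against 24.6% in CD25WT, and so did Gimap9, 6.01% against 7.15%.

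Treg states differed in number between the libraries. Cells were clustered with the Gimap genes and Il2ra left out of the features, and clusters were named only as resembling a state from its markers. Central-like cells (cluster 1, with Satb1 and Bach2 among its leading genes, and cluster 2, with Igfbp4 and Dapl1) were 588 of the CD25KO T cells (8.59%) and 3486 of the CD25WT T cells (58.2%). Effector-like cells were 2291 in CD25KO (33.4%) and 600 in CD25WT (10.0%), follicular regulatory-like cells 979 (14.3%) and 366 (6.11%), and recently stimulated-like cells 673 (9.83%) and 383 (6.39%). The follicular regulatory-like cluster 5 had Sostdc1, Tox2 and Bcl6 among its leading genes, but also the cytokine genes Il4 and Il21. Whether all its cells were regulatory was not tested. Cycling-like cells numbered 216 in CD25KO and 69 in CD25WT, interferon response-like cells 123 and 116, and 3 clusters without a name held 28.9% of CD25KO and 16.3% of CD25WT T cells. The effector-like class combined cluster 4, led by Ccr2 and S100a4 (1118 CD25KO and 469 CD25WT cells), and cluster 6, led by Ccl5, Fgl2 and Klrg1 (1173 and 131 cells), so cluster 4 held most of it in CD25WT only. The low-CD25 gate of the CD25KO sort can itself set these shares.

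When the class shares of CD25WT were applied to both libraries, the members moved closer together. The standardised log2 ratio of Gimap5 was 0.21 and that of Gimap7 0.22, beside 0.24 for Gimap4, 0.22 for Gimap6, 0.17 for Gimap1, 0.16 for Gimap9, 0.12 for Gimap8 and 0.07 for Gimap3. None of the 8 was then 1.5-fold apart, where 2.43% of measured genes were 1.5-fold higher and 0.898% lower. The family ratio was 0.17 by this weighting and the median gene 0.06. The 8 members lay between 0.07 and 0.24, all of them above the median gene, but Gimap3 only barely. In central-like cells, which held 58.2% of the weight, Gimap3 was at 0.05 (-0.02 to 0.13) and the median gene at 0.06.

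Within classes the family level ran from cycling-like cells at the low end to follicular regulatory-like cells at the high end in both libraries, with all genes in the total. Cycling-like cells had 1767 family CPM in CD25KO and 1772 in CD25WT, with a median of 14974.5 and 17554 UMIs per cell. Recently stimulated-like cells had 2459 CPM in CD25KO and 1994 in CD25WT, central-like cells 2636 and 2361, and interferon response-like cells 2757 and 2155. Follicular regulatory-like cells had 3244 CPM in CD25KO and 3311 in CD25WT. Effector-like cells had 3194 CPM in CD25KO and 2750 in CD25WT, a value that averages unlike clusters. Cluster 6 had the highest family level of all clusters, 4095 CPM in CD25KO and 4355 in CD25WT, while cluster 4 had 2565 and 2414 CPM. Over central-like cells, the effector-like class was therefore 0.28 higher in CD25KO and 0.22 higher in CD25WT on the log2 scale with both clusters, 0.64 and 0.88 higher with cluster 6 alone, and -0.04 and 0.03 apart with cluster 4 alone. The median measured gene was itself 0.30 higher in the effector-like class in both libraries, so the family as a whole did not exceed it. In the follicular regulatory-like class the family was 0.30 (CD25KO) and 0.49 (CD25WT) above central-like cells. The median gene was 0.42 and 0.48 above them there. The direction of the family in the whole effector-like class also turned, to -0.05 in CD25KO and -0.07 in CD25WT, when ribosomal protein and mitochondrial genes were left out of the total. Ribosomal protein genes took 26.0% to 46.5% of UMIs across clusters.

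**Figure D2:**
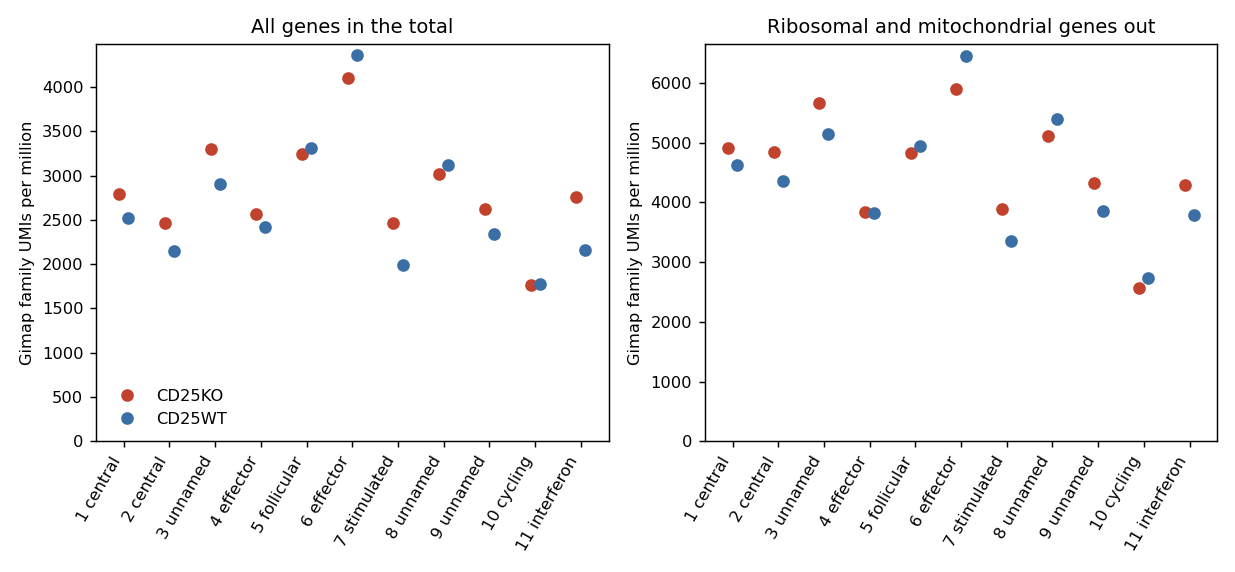
Gimap family CPM in each T cell cluster, CD25KO beside CD25WT, with all genes in the total (left) and with ribosomal protein and mitochondrial genes left out (right). On both scales cluster 6 is highest and cycling cluster 10 lowest, while the place of the central-like clusters 1 and 2 depends on the scale.

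With those genes left out, cluster 6 still had the highest level, 5898 CPM in CD25KO and 6457 in CD25WT, and cycling-like cluster 10 the lowest, 2567 and 2739. Central-like clusters 1 and 2 then stood at 4908 and 4836 CPM in CD25KO and at 4622 and 4354 in CD25WT, above cluster 4 at 3842 and 3822. Follicular regulatory-like cluster 5 stood at 4828 CPM in CD25KO, below both central-like clusters, and at 4950 in CD25WT, above both. The unnamed cluster 3, led by Naip5 and Capn3, had 5662 CPM in CD25KO and 5146 in CD25WT on that scale. Its cells were 1338 in CD25KO and 557 in CD25WT.

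Members did not share one pattern over the classes. In cycling-like cells Gimap3 had 285 CPM in CD25KO and 320 in CD25WT, its lowest level in either library, while Gimap7 had 218 and 220 CPM there, above its central-like level of 168 and 156. Compared with central-like cells, 4 of 8 members (Gimap3, Gimap6, Gimap8 and Gimap9) were at least 1.5-fold lower in cycling-like CD25KO cells and 1 (Gimap5) higher, where 15.1% of measured genes were lower and 32.1% higher. In cycling-like CD25WT cells, 2 of 8 (Gimap3 and Gimap6) were lower and 0 higher, where 12.4% of genes were lower and 31.1% higher. In follicular regulatory-like cells, 2 of 8 members (Gimap5 and Gimap7) were 1.5-fold above central-like cells in CD25KO, where 35.6% of genes were above and 4.74% below, and 3 of 8 (with Gimap1) in CD25WT, where 40.3% were above and 4.92% below. In effector-like cells these were 2 of 8 (Gimap5 and Gimap7) in CD25KO, where 25.3% of genes were above and 4.21% below, and 1 of 8 (Gimap5) in CD25WT, where 19.7% were above and 2.42% below. No member was 1.5-fold below central-like cells in the follicular regulatory-like or effector-like class. As shares of 8, these counts of higher members lay near or below those of all genes. Gimap4 was 0.33 above central-like cells in the effector-like class in both libraries, near the 0.30 of the median gene in both. It was the only member below them in the follicular regulatory-like class in both. Its log2 difference there was -0.24 in CD25KO (-0.34 to -0.14) and -0.07 in CD25WT (-0.18 to 0.03), where the interval held 0.

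Gimap5 varied most. Its level was 275 CPM in CD25KO and 185 CPM in CD25WT in recently stimulated-like cells, whose leading genes Egr3 and Nr4a1 respond early to antigen receptor signals. In follicular regulatory-like cells it was 253 and 248 CPM, and in cluster 6 it was 258 and 252 CPM. In central-like cells it was 69.4 CPM in CD25KO and 73.1 in CD25WT, lower than in those 3 groups in both libraries. Recently stimulated-like cells were thus 1.98 above central-like cells in CD25KO and 1.34 above them in CD25WT on the log2 scale. Gimap5 was the only member 1.5-fold higher there in either library, where 29.8% of measured genes in CD25KO and 25.3% in CD25WT were higher. Gimap9 was 1.5-fold lower there in CD25KO, where 8.31% of genes were lower, and no member was in CD25WT, where 8.58% were. Across the 20 combinations of library and cluster with at least 100 cells, the highest Gimap5 level was 5.63 times the lowest, against 3.66 times for Gimap7, 3.30 for Gimap3, 2.89 for Gimap6, 2.60 for Gimap4, 2.31 for Gimap8, 2.20 for Gimap1 and 1.83 for Gimap9. The lowest Gimap5 level, 48.8 CPM (33.6 to 68.5) in interferon response-like CD25WT cells, rested on 33 UMIs. The next lowest was 62.8 CPM in cluster 2 of CD25KO. The SD of log2 level over these points was 0.79 for Gimap5 and 0.53 for Gimap7, the next highest.

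Gimap7 was highest in cluster 6, with 507 CPM in CD25KO and 543 in CD25WT, against 258 and 167 CPM in cluster 4. Its share of family UMIs in cluster 6 was 12.4% in CD25KO and 12.5% in CD25WT, matched by cycling-like cells with 12.3% and 12.4%. In central-like clusters 1 and 2 it was 6.21% and 6.62% in CD25KO and 6.14% and 7.37% in CD25WT. Gimap5 took 11.2% of family UMIs in recently stimulated-like cells of CD25KO and 9.28% in CD25WT, 7.81% and 7.50% in follicular regulatory-like cells, and 2.70% and 3.06% in cluster 1. The shares of both members thus followed the cluster in both libraries.

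**Figure D3:**
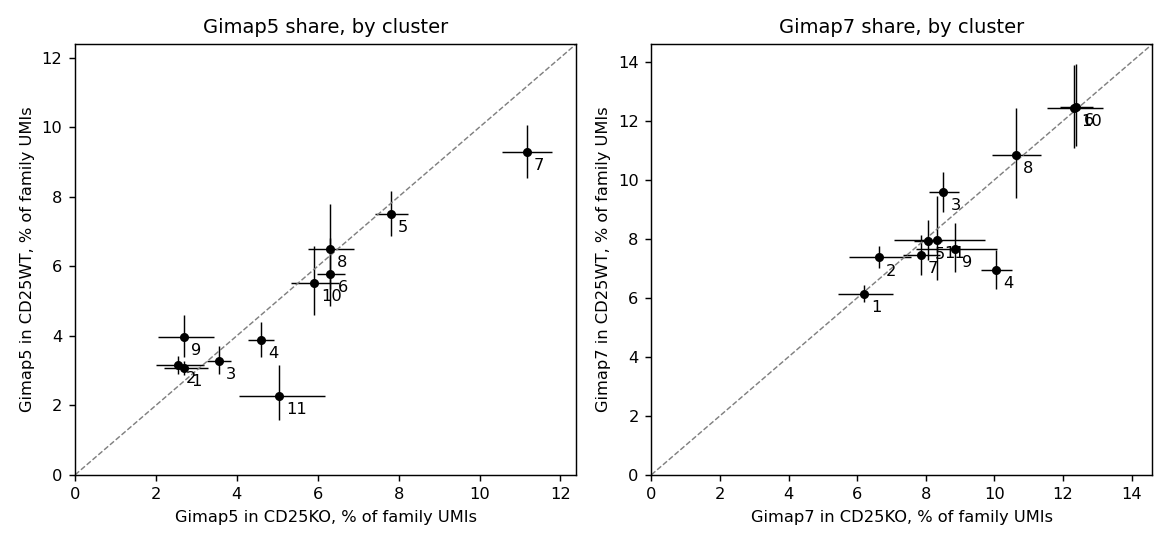
Share of family UMIs taken by Gimap5 (left) and Gimap7 (right) in each T cell cluster, CD25KO on the horizontal and CD25WT on the vertical axis, with 95% Clopper-Pearson intervals and the line of equal shares. Most clusters lie near the line, while clusters 4, 7 and 11 for Gimap5 and cluster 4 for Gimap7 lie below it, with the higher share in CD25KO. Cluster 9 for Gimap5 and cluster 3 for Gimap7 lie above it, with the lower share in CD25KO.

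In some clusters the counting interval of a difference between the libraries left out 0. Such cases were picked from all clusters and classes without allowance for their number, so those with limits near 0 may be counting error. In cluster 4, Gimap7 was 0.60 higher in CD25KO relative to the other 6 members (0.44 to 0.76), from 1715 and 417 UMIs, and Gimap5 was 0.31 higher (0.10 to 0.53). In the unnamed cluster 3, which held the most CD25KO cells, Gimap7 was lower in CD25KO relative to the other 6, at -0.18 (-0.31 to -0.05). In recently stimulated-like cells, Gimap5 was 0.31 higher relative to the other 6 (0.16 to 0.46). In interferon response-like cells Gimap5 had 139 CPM in CD25KO and 48.8 CPM in CD25WT, from 87 and 33 UMIs, a log2 ratio of 1.51 (0.92 to 2.13). This was 1 of 8 members past 1.5-fold in that class, where 24.2% of measured genes were higher and 8.26% lower by that much. In cluster 9, led by Tmem176a and Gbp2b, Gimap5 was lower in CD25KO relative to the other 6, with a log2 difference of -0.56 (-1.01 to -0.13), and in central-like cells it was -0.25 (-0.48 to -0.02). The median log2 ratio of all measured genes was itself above 0 in every class. It ran from 0.01 in follicular regulatory-like to 0.23 in interferon response-like cells. Over the 9 clusters with at least 100 cells in each library, the family was higher in CD25KO in 7, between -0.09 and 0.36, and Gimap1 in 9. Gimap5 was higher in 6 of these clusters and Gimap7 in 7, and each passed 1.5-fold in 1. Without ribosomal and mitochondrial genes in the total, each was higher in 5, and the ratio of Gimap7 in cluster 4, the only one past 1.5-fold, went to 0.54 and was no longer past it. Within the effector-like class as a whole Gimap7 alone was 1.5-fold higher, 360 CPM in CD25KO against 232 CPM in CD25WT, where 6.18% of measured genes were higher and 1.71% lower, and clusters 4 and 6 made up that class in different proportions. No member passed 1.5-fold between the libraries in the central-like class (3.62% of genes higher and 2.20% lower), the follicular regulatory-like class (3.51% and 2.73%), the recently stimulated-like class (8.52% and 2.36%) or the unnamed clusters together (3.10% and 2.01%).

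Most pairs of members had positive correlations of level over the 20 points, which share their library, depth and composition of UMIs. Correlations for pairs of all genes are not given beside them. Over the 28 pairs of members, Pearson's r of log2 CPM ran from -0.05 (Gimap5 and Gimap9) to 0.95 (Gimap3 and Gimap6), with a median of 0.62 and 27 pairs above 0. Gimap6 followed the sum of the other 7 most closely, with r of 0.93, then Gimap1 with 0.91 and Gimap3 with 0.87. Gimap5 followed it least, with 0.47. The family's r with the share of ribosomal protein UMIs was -0.41 over the same points. Of 4960 other genes that averaged 20 CPM or more, those most like the family were Fam3c, with r of 0.92, which encodes a secreted cytokine-like protein, Zbtb38, with 0.90, a zinc finger protein that binds methylated DNA, and Birc2, with 0.90, the inhibitor of apoptosis cIAP1. Taz, Neurl3 and Ddit3 came next, each with 0.88. The least like were Nme2, a nucleoside diphosphate kinase, with r of -0.91, then Rexo2 with -0.82, Idi1 with -0.80 and Snrpd3 with -0.80.

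The block of Gimap genes stood out from its flanks. Upstream of Gimap8, Repin1 was at 1.93 CPM in CD25KO and 0.92 in CD25WT, Zfp775 at 4.29 and 4.11, and AI854703 at 2.64 and 2.56. Downstream of Gimap3, Tmem176b was at 9.60 CPM in CD25KO and 9.91 in CD25WT and Tmem176a at 7.47 and 10.7, and Aoc1 had 6 UMIs in CD25KO and 0 in CD25WT. The flanking genes were thus below the lowest Gimap member, Gimap8, in both libraries. The antisense gene Gimap1os was at 85.9 CPM in CD25KO and 69.9 CPM in CD25WT, a log2 ratio of 0.30 (0.22 to 0.38), the same ratio as that of Gimap1. Whether counting used the strand is not stated in the sources, so reads of this overlapping pair may not be told apart.

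**Figure D4:**
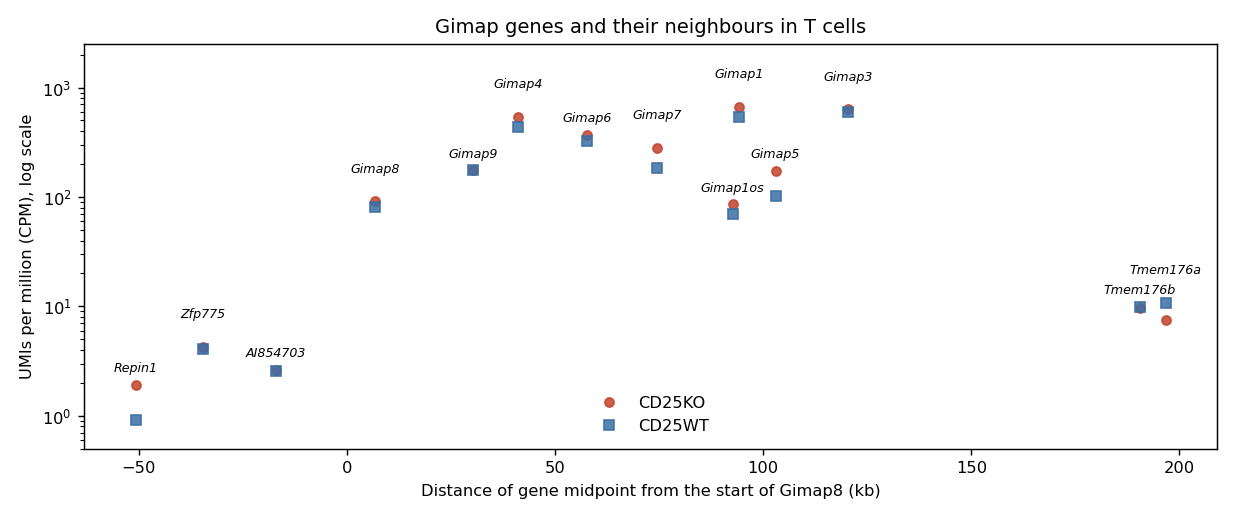
Level in T cells (CPM, log scale) of the Gimap genes and their nearest counted neighbours by distance of the gene's midpoint from the start of Gimap8, for CD25KO (circles) and CD25WT (squares). The Gimap genes lie between 81.6 and 659 CPM, and the flanking genes at or below 10.7 CPM.

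Genes that work with or beside Gimap proteins were described from lists, whose medians stand beside the 0.21 of all measured genes (0.06 by the class weights), a value that was -0.02 with TMM factors. Their counts stand beside the 10.6% of all measured genes that were 1.5-fold higher and the 1.49% that were lower. Of 17 factors of lymphocyte quiescence, all measured, 0 were 1.5-fold higher in CD25KO (10.6% of all genes) and 6 were lower (1.49%), with a median log2 ratio of -0.36, against 0.23 for the Gimap genes. The glucocorticoid-induced regulator Tsc22d3 was at -1.39, the repressor Bach2 at -1.10, the chromatin organiser Satb1 at -1.01 and Txnip, which limits glucose uptake, at -0.90. By the CD25WT class weights the median of the quiescence list was -0.07. Bach2 and Satb1 are among the leading genes of central-like cluster 1, and by the class weights their ratios turned positive, to 0.22 and 0.41, while Tsc22d3 stood at -0.75 and Txnip at -0.53.

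Of 10 measured BCL2-family genes, which set the threshold of mitochondrial apoptosis and with some of which Gimap proteins have been reported to bind, 4 were higher and 2 lower in CD25KO, where 10.6% and 1.49% of all genes were (median 0.52, and 0.09 by the class weights). The survival gene Bcl2 was at 171 CPM in CD25KO and 432 CPM in CD25WT, a log2 ratio of -1.34, whereas its relative Bcl2a1b was at 300 and 119 CPM, a ratio of 1.34. Bcl2a1d, whose reads may be shared with Bcl2a1b as a near-identical copy, had 1.29, and Bid, a promoter of apoptosis, had 0.81. Of 10 measured ATG8-type autophagy genes, 1 was higher and 0 lower, a share near the 10.6% of all genes (median 0.26, and 0.12 by the class weights). It was Lamp2, a lysosomal membrane protein, at 0.90, while Map1lc3b had 0.40, Gabarap 0.38 and Gabarapl2, the Gimap6 partner, 0.32.

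Of 15 measured GTPases induced by interferon-gamma, 1 was 1.5-fold higher and 0 lower, against 10.6% and 1.49% of all genes. Their median was 0.26, and 0.40 by the class weights. The immunity-related GTPase Iigp1 was at 0.77, and Gbp3 at 0.43, Gbp7 at 0.39 and Tgtp1 at -0.34, which turned to 0.34 by the class weights. Of 15 measured Ras-like GTPases, 2 were higher and 0 lower, near the 10.6% of all genes (median 0.22, and 0.03 by the class weights). They were Arf6, which acts in membrane traffic, at 0.84, and Rab8b at 0.68, while Rac1 had 0.57 and Rap1a 0.55. Of 9 genes of the GSK3 and NFAT axis, listed because Gimap5 is known to keep the kinase GSK3 in check, 1 was higher and 0 lower, near the 10.6% of all genes (median 0.23, and 0.04 by the class weights). It was the transcription factor gene Nfatc1 at 0.87, while Nfatc2 had 0.56, Axin1 0.52 and Nfatc3 0.37.

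**Figure D5:**
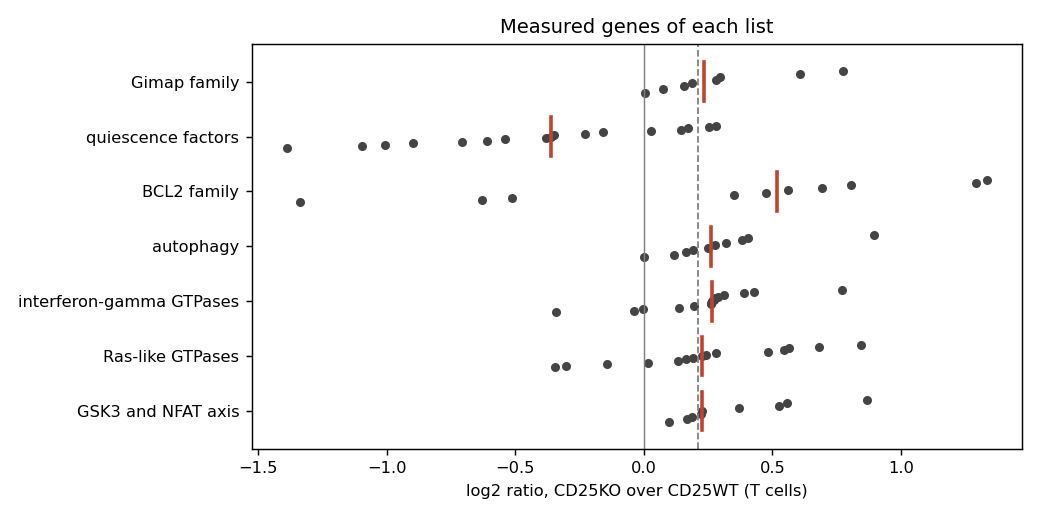
Log2 ratio of CD25KO over CD25WT in T cells for each measured gene of the Gimap family and of each related list, with the list's median as a red bar and the median of all measured genes as a dashed line. The quiescence factors have a median of -0.36 and the Gimap genes one of 0.23.

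Splitting cells by a detected transcript of the deleted gene moved the family little. In thinned CD25KO cells it was at 3103 CPM with and 3144 CPM without an Il2ra UMI, and in thinned CD25WT cells at 2525 and 2568 CPM. An Il2ra UMI was seen in 1058 thinned CD25WT cells and not in 4878, and in 393 and not in 6107 thinned CD25KO cells. Cells without one can hold missed Il2ra transcripts, so the split cannot show whether the family level goes with Il2ra expression. The same limit holds for Foxp3. Cells with a Foxp3 UMI had 3426 CPM against 3127 CPM without one in CD25KO, and 2637 against 2555 CPM in CD25WT. Transcripts of other lineages were present among the T cells, and their part in the Gimap values was not tested. Summed B cell markers were at 143 CPM in CD25KO and 46.3 CPM in CD25WT, myeloid markers at 145 and 107, erythroid markers at 113 and 202, CD8 T cell markers at 13.6 and 11.6, and NK cell markers at 5.68 and 3.02. Of these lists, 2 of 8 B cell, 1 of 7 myeloid, 4 of 6 erythroid, 1 of 2 CD8 T cell and 0 of 5 NK cell markers reached a mean of 10 CPM.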

How the data were processed

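Single-cell 3' libraries were prepared on the 10x Chromium platform (per the labels). Per the file headers, Cell Ranger 6.0.0 made the deposited matrices of raw UMI counts, which carry no normalization, and the submitters' processing notes name mm10. The counting annotation was not stated. Gene positions came from GENCODE mouse release M21 on the same build. Barcodes under 500 detected genes or over 10% mitochondrial UMIs were dropped, which removed 578 (7.68%) in CD25KO and 510 (7.70%) in CD25WT. Scrublet (Scanpy 1.11.5) called 0 and 1 doublets, which was taken as a failure of the caller, so doublets are taken to remain.

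Both libraries were clustered together (log counts, 2000 variable genes, 30 principal components, 15 neighbours, leidenalg 0.10.2 at resolution 1) without Gimap genes, Il2ra, receptor segments, ribosomal protein, mitochondrial, haemoglobin, Xist or Y-linked genes. Clusters were named from marker lists, with a mean marker log2 fold of at least 0.25 and at least 3 detected markers, and clusters of other lineages were set aside. Summed T cell UMIs of a library were expressed per 1000000 (CPM), with exact Poisson intervals for levels, exact conditional intervals for ratios and Clopper-Pearson intervals for shares. Ratios are CD25KO over CD25WT. A gene averaging 10 CPM or more counted as measured, and a gene was counted as higher or lower at 1.5-fold. Standardised ratios applied the CD25WT class shares to both libraries. All members are named, and of each related list the 4 measured genes with the largest absolute log2 ratio. Genes that define clusters or flank the block, and the genes most and least like the family, are named besides. The members, lists and classes were chosen with earlier results of these data known. The ratio step was tested on simulated data. Alternatives were TMM factors (edgeR 4.0.16), median-of-ratios factors (as in DESeq2), other totals, cell filters, thinning and clusterings.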

Additional observations from a re-analysis of the deposited data

Results flagged for a closer look

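Gimap3 differed between classes in its direction. On the log2 scale its CD25KO level stood at 0.35 (0.13 to 0.57) relative to CD25WT in interferon response-like cells and at -0.11 (-0.19 to -0.02) in follicular regulatory-like cells, a difference of 0.45 that was not tested. The median of all measured genes was itself 0.23 in interferon response-like and 0.01 in follicular regulatory-like cells, and without ribosomal and mitochondrial genes in the total Gimap3 stood at 0.17 and -0.11.

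Gimap transcripts were also counted in barcodes set aside from the T cells. Erythroid-rich barcodes, in which haemoglobin took most UMIs, had 1208 family CPM in 8 CD25KO cells and 311 family CPM in 11 CD25WT cells. B cell-marked barcodes had 1575 family CPM in 27 CD25KO cells and 1966 in 23 CD25WT cells, and myeloid barcodes 2997 in 27 CD25KO cells and 2000.5 in 25 CD25WT cells. A family UMI was present in 8 of 8 CD25KO and 6 of 11 CD25WT erythroid-rich barcodes, in 26 of 27 and 22 of 23 B cell-marked ones and in 24 of 27 and 20 of 25 myeloid ones, where T cells had 99.9% in both. Median depth was 15832 and 17985 UMIs for erythroid-rich, 4013 and 4606 for B cell-marked and 4937 and 4457 for myeloid barcodes. The remaining set-aside barcodes, 41 in CD25KO and 57 in CD25WT with a median of 2069 and 2273 UMIs, had 938 and 669 family CPM and a family UMI in 19 and 26 cases. Such barcodes can hold more than 1 cell or free RNA, which was not tested. The antisense gene Gimap1os, which is no member, had a log2 ratio of 0.30.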

How the results depend on the processing

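The log2 ratio of the family, 0.25, was 0.020 with TMM factors, 0.023 with median-of-ratios factors and 0.058 without ribosomal and mitochondrial genes, where 0 members passed 1.5-fold. It was 0.32 with equal weight per cell, 0.29 after thinning, 0.24 with the stricter cell filter, 0.30 without cycling-like cells, 0.30 in cells with a Foxp3 UMI and 0.22 against CD25WT cells with no Il2ra UMI. Signs reversed with TMM factors for Gimap3 (-0.16), Gimap6 (-0.047), Gimap8 (-0.076) and Gimap9 (-0.23), with median-of-ratios factors for the same genes (-0.16, -0.044, -0.073 and -0.23) and without ribosomal and mitochondrial genes (-0.12, -0.0096, -0.038 and -0.19). Gimap9 also reversed with the highest doublet scores removed (-0.0086), in cells with a Foxp3 UMI (-0.035) and against CD25WT cells with no Il2ra UMI (-0.0076). The standardised family ratio, 0.17, was 0.22 at resolution 0.5, 0.22 with 50 components, 0.24 with classes from marker levels, 0.12 without ribosomal and mitochondrial genes and 0.15 with weights by cluster, which was chosen after seeing the data. Effector-like over central-like cells was 0.21 in CD25KO and 0.15 in CD25WT at resolution 0.5, 0.38 and 0.47 at resolution 1.5, 0.36 in CD25KO with 15 components, 0.21 and 0.17 with 50 components, 0.17 and 0.15 with classes from marker levels, and 0.39 and 0.27 after thinning. It reversed without ribosomal and mitochondrial genes (-0.051 and -0.070), and was -0.039 and 0.032 with cluster 4 alone and 0.64 and 0.88 with cluster 6 alone, settings chosen after seeing the data. Genes 1.5-fold higher and lower, 754 and 106, were 390 and 260 with TMM factors, 392 and 254 with median-of-ratios factors, 3909 and 1322 with at least 1 UMI in each library, and 263 and 41 at 2-fold, and 167 were lower at a minimum of 5 CPM. The causes were not tested. Of the other 197 values, 112 moved by less than their counting interval, 70 by more, and 15 changed sign as given. No paired analysis was possible because each group was 1 library. With 1 library of pooled mice per group, and a sort gate that differed, neither variation between animals nor the gate can be separated from genotype, and cells thinned to 2000 UMIs held a median of 6 family UMIs in CD25KO and 5 in CD25WT, which limits what a single cell shows of 1 member.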
